A study of Homo sapiens with 12 samples.

Results

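The oestrogen receptor (ER) acts with a small group of DNA-binding partners and coregulators, and 9 of the genes that encode this group were followed here: ESR1, FOXA1, GATA3, SPDEF, TFAP2A, TFAP2C, NCOA1, NCOA3 and NRIP1. They were chosen by gene symbol for their known roles, with earlier results of these data known, and the symbols matched 9 rows of a table of 60612 named genes. Each of the 9 passed the filter on low counts that left 11803 genes for testing.

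CAMA-1 is an established line of ER-positive luminal breast cancer cells, and the cells of all groups were labelled wild-type and grown in the same serum-containing medium. Polyadenylated RNA was sequenced from the 3' end in 12 libraries, 3 for each of 4 groups: the vehicle DMSO, abemaciclib at 100 nM, fulvestrant at 5 nM, and a combination of both drugs, for which the labels do not restate the doses. Abemaciclib inhibits the cell cycle kinases CDK4 and CDK6, and fulvestrant binds ER and promotes its degradation. The libraries of a group were described as biological replicates, all came from a single cell line, and the libraries measure transcripts and not the ER protein that fulvestrant acts on.

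ER, encoded by ESR1, is a nuclear receptor that binds DNA at oestrogen response elements and, once bound by oestrogen, recruits coactivators that open chromatin and start transcription. Pioneer factors such as FOXA1 and GATA3 bind closed chromatin ahead of ER and make its enhancers accessible, and in luminal breast cells they are joined by the ETS factor SPDEF and the AP-2 factors TFAP2A and TFAP2C. NCOA1 and NCOA3 are steroid receptor coactivators that dock on the liganded receptor, whereas NRIP1 is a coregulator, itself a known ER target, that competes for the same surface and restrains receptor activity.

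The genes lie on 6 chromosomes (GRCh38, GENCODE gene bounds). ESR1 spans chr6:151656691-152129619 on the plus strand, with SPDEF at chr6:34537802-34556333 and TFAP2A at chr6:10393186-10419659, both on the minus strand. FOXA1 spans chr14:37589552-37596059 and NRIP1 chr21:14961235-15065936, both minus. GATA3 spans chr10:8045378-8075198, NCOA1 chr2:24491254-24770702, NCOA3 chr20:47501887-47656877 and TFAP2C chr20:56629306-56639283, all plus. Genes annotated on the opposite strand of 5 members also had counts, at most 413 in all 12 libraries together (SULF2, against 5275 for NCOA3), and the strand setting of the counting is not given in the sources used here.

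To show the sequence around annotated starts of the members, RefSeq promoter windows (GRCh38.p14, 250 bases before to 50 after an annotated start, 300 in all) were searched on both strands. A window was given for 8 of the 9 members, 23 windows in all, while TFAP2C was without an entry. The full oestrogen response element, GGTCANNNTGACC, was in 0 of the 23 windows and in 0.057% of all 35116 windows, which means only that these letters were not found there. A single arm of it, GGTCA or its complement TGACC, was in 6 windows of 4 members (ESR1, GATA3, TFAP2A and NRIP1), against 37.4% of all windows. The forkhead motif TGTTTAC was in 0 member windows (3.42% of all), the GATA motif AGATAA in 1 (10.3%), the AP-2 motif GCCNNNGGC in 4 (23.2%) and the E2F motif TTCCCGC in 2 (6.55%). The AP-2 and full-element motifs read the same on both strands, and the arms are part of the full element.

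The upstream bases of 3 members are shown because TFAP2A and FOXA1 had the largest rises under fulvestrant and NRIP1 had the largest fall between treated groups; capitals mark GGTCA or TGACC. The TFAP2A window shown is the 1 of its 2 windows that holds an arm, chr6:10419660-10419909 on the minus strand, with arms beginning 93 and 10 bases before the start site. NRIP1 has 3 windows, and the one shown, chr21:15065001-15065250 on the minus strand, is the only 1 with an arm, though it is not the most upstream. That arm begins 170 bases before the start of an annotated transcript. The FOXA1 window is chr14:37595250-37595499 on the minus strand and has no arm. A match to such short letters is a description and not a binding site.
TFAP2A: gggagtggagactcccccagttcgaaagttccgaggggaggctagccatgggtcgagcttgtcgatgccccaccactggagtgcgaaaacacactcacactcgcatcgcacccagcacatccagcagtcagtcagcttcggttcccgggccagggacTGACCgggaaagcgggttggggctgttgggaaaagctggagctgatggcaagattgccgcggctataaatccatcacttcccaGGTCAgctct
NRIP1: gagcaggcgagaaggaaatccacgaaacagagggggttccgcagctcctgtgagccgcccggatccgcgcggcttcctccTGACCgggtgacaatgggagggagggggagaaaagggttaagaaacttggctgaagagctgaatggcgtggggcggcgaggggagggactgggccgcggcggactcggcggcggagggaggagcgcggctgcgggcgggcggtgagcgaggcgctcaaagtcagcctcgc
FOXA1: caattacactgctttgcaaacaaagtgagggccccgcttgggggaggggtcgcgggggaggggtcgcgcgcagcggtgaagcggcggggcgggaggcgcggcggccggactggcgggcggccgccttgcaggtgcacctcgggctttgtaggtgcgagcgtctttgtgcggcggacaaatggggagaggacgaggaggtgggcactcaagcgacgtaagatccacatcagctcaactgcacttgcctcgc

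Library totals ranged from 3299119 to 5164667 counts, so that a member was covered by between 58 counts (NCOA1) and 18940 counts (GATA3) in a library. Levels are given as normalized counts (CPM) on library sizes scaled by TMM, and changes as log2 fold changes from edgeR's quasi-likelihood test with the Benjamini-Hochberg adjusted p over all 11803 genes. A gene was called where its adjusted p was under 0.05. Transcripts of the mitochondrial genome took 12.0% to 12.5% of counts in DMSO and 15.6% to 20.6% in the treated libraries, and leaving them out changed no call for a member. Fulvestrant replicates 2 and 3 were the least alike of any pair within a group (Pearson's r of log2 CPM across genes, 0.970). The spread was estimated over all 12 libraries together. For abemaciclib against DMSO 4864 genes were called in full. Leaving out fulvestrant replicate 3 gave 5362, and leaving out fulvestrant replicate 2 gave 5108. In bulk RNA, fewer cells expressing a gene and less of its RNA per cell cannot be told apart. The luminal epithelial markers KRT8, KRT18, KRT19 and EPCAM were abundant in every group, and basal, leukocyte and endothelial markers had at most 13 counts in all 12 libraries. Of the fibroblast markers, COL1A2 and DCN had 0 counts, whereas COL1A1 had 1058.

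As a readout of ER activity, 2 of its classical targets were read in each group. GREB1, an ER target and cofactor, averaged 81.1 ± 4.43 CPM in DMSO, 127 ± 4.57 with abemaciclib, 4.62 ± 0.775 with fulvestrant and 7.68 ± 1.05 with the combination (SD, n = 3). TFF1, a secreted peptide and classical ER target, averaged 60.5 ± 2.87, 382 ± 13.9, 1.46 ± 0.686 and 2.32 ± 0.510 CPM in the same order. Against this range, the 9 members moved little: the ratio of the highest to the lowest group mean ran from 1.25 for TFAP2C to 1.72 for TFAP2A. The plot of member levels by library shows this directly.

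**Figure D1:**
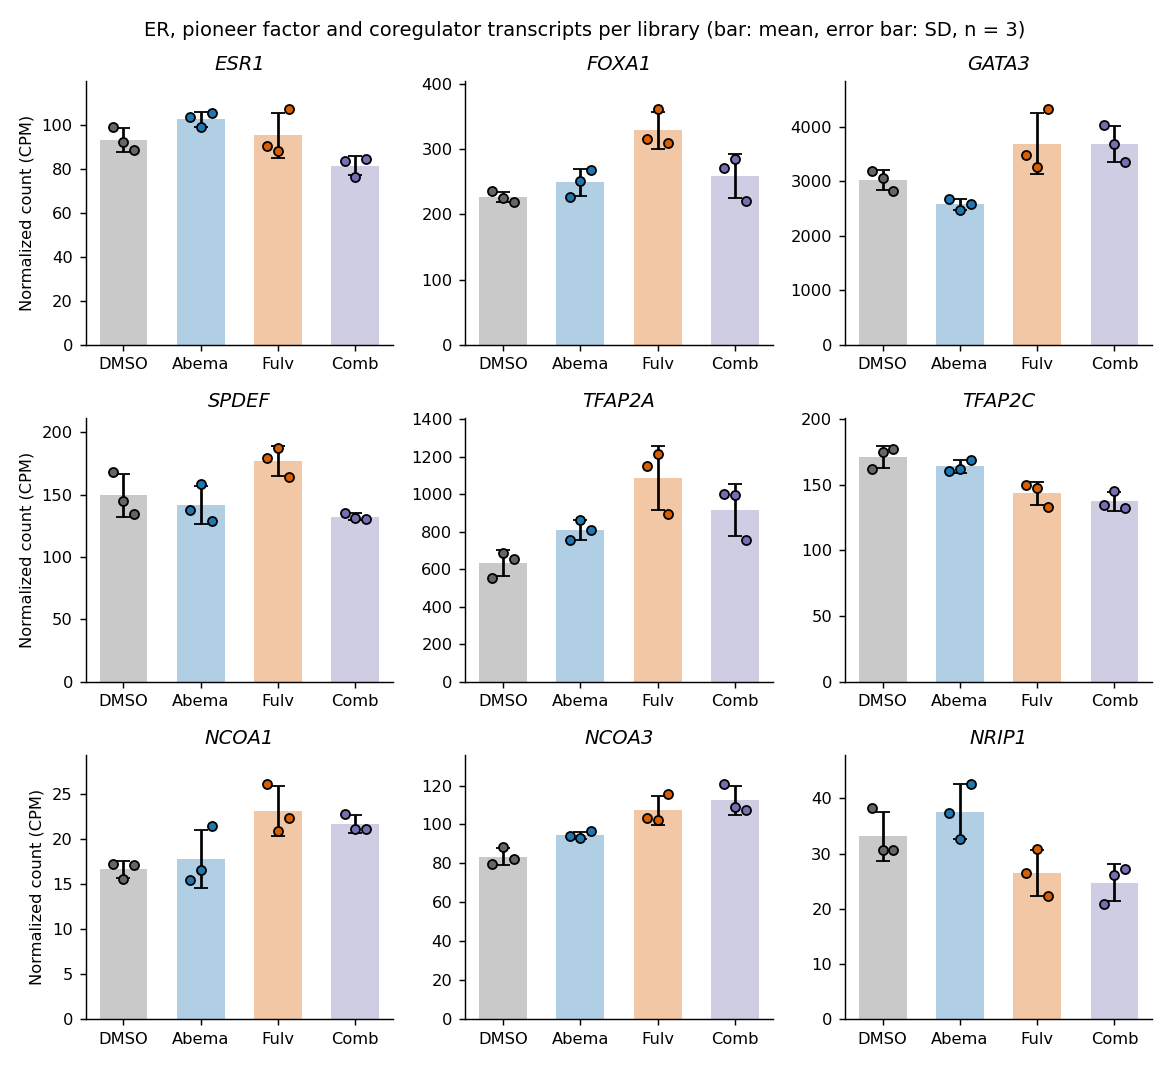
CPM of each of the 9 genes (vertical axes, starting at 0, a different scale per panel) in DMSO, abemaciclib (Abema), fulvestrant (Fulv) and combination (Comb) libraries; points are libraries, bars means and error bars SDs (n = 3). ESR1 is lowest in the combination (81.5 CPM) while TFAP2A rises from 632 CPM in DMSO to 1087 CPM with fulvestrant.

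The ESR1 transcript passed the test in 1 of 6 pairwise comparisons, where it was lower with the combination than with abemaciclib. The DMSO libraries held 99.1, 92.2 and 88.5 CPM and the abemaciclib libraries 103, 98.9 and 106 CPM. Fulvestrant libraries held 90.4, 88.3 and 107 CPM, and combination libraries 83.7, 76.3 and 84.5 CPM. All 3 combination libraries lay below every library of the other groups, whereas the DMSO, abemaciclib and fulvestrant libraries overlapped. In order of their means the groups ran abemaciclib (103 ± 3.43 CPM), fulvestrant (95.3 ± 10.3), DMSO (93.3 ± 5.42) and combination (81.5 ± 4.52), and no neighbours in that order passed the test.

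For fulvestrant against DMSO the ESR1 change was 0.04 ± 0.09 log2 (SE, 95% interval -0.15 to 0.23, adjusted p = 0.768), and without fulvestrant replicate 3 it was -0.06. With abemaciclib alone it was 0.14 ± 0.09 (interval -0.05 to 0.33, adjusted p = 0.226), and with the combination -0.19 (adjusted p = 0.0814). From abemaciclib to the combination ESR1 fell by 0.33 ± 0.09 on the log2 scale (interval -0.52 to -0.14, adjusted p = 0.00598), a 1.26-fold lower level. This fall was called under every alternative processing. From fulvestrant to the combination the change was -0.23 with an adjusted p of 0.304, although the libraries did not overlap. Measured against DMSO, then, no treatment changed ESR1 past the threshold, while GREB1 and TFF1 spanned the ranges above.

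FOXA1, the forkhead pioneer factor that opens ER enhancers, rose with fulvestrant. It stood at 235, 225 and 219 CPM in DMSO and at 316, 361 and 310 CPM with fulvestrant. Abemaciclib libraries held 227, 252 and 269 CPM, and combination libraries 270, 285 and 221 CPM. The fulvestrant libraries lay above all others, and the remaining 3 groups overlapped. The rise over DMSO was 0.54 ± 0.09 log2 (interval 0.35 to 0.72, adjusted p = 1.77e-05), 1.45-fold, and was called under every alternative. Abemaciclib against fulvestrant was lower by the same rule, with a change of -0.40 (adjusted p = 0.00129).

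In the combination FOXA1 was lower than with fulvestrant alone. The combination differed from DMSO by 0.19 (adjusted p = 0.0762), from abemaciclib by 0.06 (adjusted p = 0.677) and from fulvestrant by -0.34 ± 0.09 (adjusted p = 0.0428). These 2 contrasts with DMSO and fulvestrant depended on single libraries. Without combination replicate 3, the library at 221 CPM, FOXA1 passed against DMSO (0.30, adjusted p = 0.0089) and no longer differed past the threshold from fulvestrant (-0.25, adjusted p = 0.312). The call against fulvestrant was also lost without combination replicate 1 (-0.38, adjusted p = 0.0682), fulvestrant replicate 1 (-0.38, adjusted p = 0.0742) or fulvestrant replicate 2 (-0.27, adjusted p = 0.221). It was lost as well with library totals only (adjusted p = 0.108), a fit to only these groups (adjusted p = 0.199) and a minimum of 10 counts in every library (adjusted p = 0.0683), and upper-quartile scaling gave the call against DMSO (0.22, adjusted p = 0.0424).

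GATA3, the zinc finger factor that maintains luminal identity, was the most abundant member and moved in opposite directions with the 2 drugs. DMSO libraries held 3176, 3062 and 2818 CPM, abemaciclib libraries 2678, 2471 and 2578 CPM. Fulvestrant libraries held 3482, 3265 and 4317 CPM, and combination libraries 4019, 3674 and 3348 CPM. Every abemaciclib library was below every DMSO library, and every fulvestrant and combination library was above them. The means ordered as fulvestrant (3688 ± 555 CPM), combination (3680 ± 336), DMSO (3019 ± 183) and abemaciclib (2576 ± 104). Of the neighbours, fulvestrant and combination did not differ past the threshold (adjusted p = 0.994).

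Under abemaciclib GATA3 fell by 0.23 on the log2 scale (interval -0.41 to -0.05, adjusted p = 0.0422). That call was close to the threshold and was lost without DMSO replicate 1 (-0.19, adjusted p = 0.137), DMSO replicate 2 (-0.22, adjusted p = 0.112), abemaciclib replicate 1 (-0.26, adjusted p = 0.064), abemaciclib replicate 2 (-0.20, adjusted p = 0.155) or abemaciclib replicate 3 (-0.23, adjusted p = 0.102). It was also lost with DESeq2 (-0.24, adjusted p = 0.0545) and with upper-quartile scaling (-0.21, adjusted p = 0.0644). Under fulvestrant it rose by 0.29 (interval 0.11 to 0.47, adjusted p = 0.00871), and without fulvestrant replicate 3, the library at 4317 CPM, the rise was 0.16 (adjusted p = 0.0592). With the combination it rose by 0.29 against DMSO (adjusted p = 0.00844), and without combination replicate 1 by 0.23 (adjusted p = 0.0541). The contrasts between treatments were wider. GATA3 rose by 0.51 ± 0.09 from abemaciclib to the combination (adjusted p = 6.02e-05), and abemaciclib differed from fulvestrant by -0.52 (adjusted p = 6.84e-05). Both were called under every alternative.

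SPDEF, an ETS factor of secretory and luminal epithelium, was highest with fulvestrant alone. The libraries held 168, 145 and 135 CPM in DMSO and 137, 159 and 129 CPM with abemaciclib. They held 180, 187 and 164 CPM with fulvestrant and 136, 131 and 130 CPM with the combination. The fulvestrant libraries overlapped only with DMSO replicate 1, and those of DMSO, abemaciclib and the combination overlapped among themselves. Against DMSO fulvestrant gave a rise of 0.25 (adjusted p = 0.0249), lost without DMSO replicate 2 (0.23, adjusted p = 0.0776), DMSO replicate 3 (0.19, adjusted p = 0.125), fulvestrant replicate 1 (0.25, adjusted p = 0.0563) or fulvestrant replicate 2 (0.21, adjusted p = 0.0837). DESeq2 (adjusted p = 0.0542), scaling by library totals only (adjusted p = 0.0883) and a fit to only these groups (adjusted p = 0.0555) ended that call too. The larger contrast was with the combination, which was lower than fulvestrant by -0.42 ± 0.09 log2 (adjusted p = 0.00873; without combination replicate 3, -0.42 with adjusted p = 0.0508). Abemaciclib was also lower than fulvestrant, by -0.32 (adjusted p = 0.00912), a call lost without abemaciclib replicate 3 (-0.26, adjusted p = 0.0756). Abemaciclib and the combination did not change SPDEF past the threshold against DMSO (-0.07 and -0.17, adjusted p = 0.565 and 0.119).

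The AP-2 factors moved apart. TFAP2A had the widest range of the 9 members, with 554, 688 and 655 CPM in DMSO and 758, 862 and 809 CPM with abemaciclib. Fulvestrant libraries held 1151, 1214 and 896 CPM and combination libraries 1001, 994 and 758 CPM. Every treated library was above every DMSO library, and the fulvestrant and combination libraries overlapped. TFAP2A rose by 0.78 ± 0.13 log2 with fulvestrant (interval 0.50 to 1.06, adjusted p = 0.000181), 1.72-fold, and by 0.54 with the combination (interval 0.26 to 0.81, adjusted p = 0.00299). Both rises were called under every alternative.

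The rise of TFAP2A with abemaciclib alone, 0.35 ± 0.13 log2 (interval 0.08 to 0.63, adjusted p = 0.0417), was lost without DMSO replicate 1 (0.27, adjusted p = 0.134), DMSO replicate 3 (0.39, adjusted p = 0.0596), abemaciclib replicate 2 (0.31, adjusted p = 0.115) or abemaciclib replicate 3 (0.36, adjusted p = 0.0806). Abemaciclib was lower than fulvestrant by -0.43 (adjusted p = 0.0238), and this was lost without abemaciclib replicate 1 (-0.38), abemaciclib replicate 3 (-0.42), fulvestrant replicate 1 (-0.39) or fulvestrant replicate 2 (-0.34), with adjusted p between 0.0619 and 0.11. The combination did not differ past the threshold from fulvestrant (-0.24, interval -0.52 to 0.03, adjusted p = 0.505) or abemaciclib (0.18, adjusted p = 0.311).

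TFAP2C, which is known to regulate ESR1 in luminal cells, fell with fulvestrant and with the combination against DMSO, where TFAP2A rose. It stood at 162, 174 and 177 CPM in DMSO and 160, 162 and 169 CPM with abemaciclib. Levels were 150, 147 and 133 CPM with fulvestrant and 135, 145 and 132 CPM with the combination. Every library with fulvestrant in it, alone or combined, was below every library without it. TFAP2C fell by 0.26 ± 0.08 on the log2 scale with fulvestrant (interval -0.42 to -0.09, adjusted p = 0.0087) and by 0.32 with the combination (interval -0.48 to -0.16, adjusted p = 0.00125), both called under every alternative. Between abemaciclib and the combination it fell by 0.26 (adjusted p = 0.0139), a call lost without abemaciclib replicate 3 (-0.24, adjusted p = 0.0595) or combination replicate 3 (-0.23, adjusted p = 0.0623), and with library totals only (-0.20, adjusted p = 0.0622). Abemaciclib alone gave -0.06 (interval -0.23 to 0.10, adjusted p = 0.545).

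The coactivators NCOA1 and NCOA3 were higher with fulvestrant. NCOA3, which is often amplified in breast cancer, held 79.8, 88.2 and 82.3 CPM in DMSO and 93.8, 92.9 and 96.5 CPM with abemaciclib. It held 104, 102 and 116 CPM with fulvestrant and 121, 109 and 107 CPM with the combination. The libraries separated into 3 levels with DMSO lowest, abemaciclib next, and the overlapping fulvestrant and combination libraries highest. NCOA3 rose by 0.36 ± 0.09 log2 with fulvestrant (interval 0.18 to 0.54, adjusted p = 0.00121) and by 0.43 with the combination (interval 0.25 to 0.60, adjusted p = 0.000167), both called under every alternative. With abemaciclib the change was 0.18 (interval -0.01 to 0.36, adjusted p = 0.115). From abemaciclib to the combination NCOA3 rose by 0.25 (adjusted p = 0.0263), lost without abemaciclib replicate 1 (0.24), abemaciclib replicate 2 (0.24), abemaciclib replicate 3 (0.26) or combination replicate 1 (0.20), with adjusted p from 0.0535 to 0.124. DESeq2 (0.24, adjusted p = 0.0602) and a fit with no filter on low counts (0.24, adjusted p = 0.0768) did not call it.

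NCOA1 was the least abundant member, and its change had the largest standard error in each comparison with DMSO. It held 17.2, 15.6 and 17.2 CPM in DMSO, 15.4, 16.6 and 21.5 CPM with abemaciclib, 26.2, 20.9 and 22.3 CPM with fulvestrant, and 22.9, 21.1 and 21.2 CPM with the combination. The fulvestrant and combination libraries were above all DMSO libraries, and 1 abemaciclib library reached among them. NCOA1 rose by 0.48 ± 0.16 log2 with fulvestrant (interval 0.16 to 0.80, adjusted p = 0.0125), lost without DMSO replicate 2 (0.43, adjusted p = 0.0548) or fulvestrant replicate 1 (0.39, adjusted p = 0.0712). With the combination it rose by 0.38 (adjusted p = 0.0384), a call lost without any 1 of the 6 DMSO and combination libraries, with changes between 0.33 and 0.42 and adjusted p from 0.0553 to 0.132. DESeq2 (adjusted p = 0.0946), library totals only (adjusted p = 0.0502) and no filter on low counts (adjusted p = 0.0698) ended it as well. Abemaciclib differed from fulvestrant by -0.39 (adjusted p = 0.0621), which passed without abemaciclib replicate 3 (-0.53, adjusted p = 0.0228) or fulvestrant replicate 2 (-0.45, adjusted p = 0.0477). With abemaciclib the change was 0.09 (interval -0.24 to 0.42, adjusted p = 0.684).

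NRIP1, the receptor-interacting corepressor, was lower with the combination than with DMSO or abemaciclib. It held 38.3, 30.6 and 30.6 CPM in DMSO and 37.4, 32.7 and 42.7 CPM with abemaciclib. It held 26.4, 30.7 and 22.3 CPM with fulvestrant and 20.9, 26.1 and 27.2 CPM with the combination. All combination libraries were below every DMSO and abemaciclib library, while those of fulvestrant overlapped with DMSO. From abemaciclib to the combination NRIP1 fell by 0.59 ± 0.15 on the log2 scale (interval -0.89 to -0.29, adjusted p = 0.00223), a 1.51-fold lower level that was called under every alternative. Abemaciclib was above fulvestrant by 0.51 (interval 0.20 to 0.81, adjusted p = 0.0103), lost without abemaciclib replicate 3 (0.41, adjusted p = 0.0686) or fulvestrant replicate 3 (0.39, adjusted p = 0.0512).

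Measured against DMSO, NRIP1 fell by 0.40 with the combination (adjusted p = 0.0229), lost without DMSO replicate 1 (-0.30, adjusted p = 0.118) or combination replicate 1 (-0.30, adjusted p = 0.125). Fulvestrant alone gave -0.32 ± 0.15 (interval -0.63 to -0.01, adjusted p = 0.0795), which passed without fulvestrant replicate 2 (-0.43, adjusted p = 0.0306) or with library totals only (-0.38, adjusted p = 0.0411), and abemaciclib against DMSO gave 0.19 (interval -0.10 to 0.48, adjusted p = 0.298). For an ER target these changes were small beside those of GREB1 and TFF1.

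**Figure D2:**
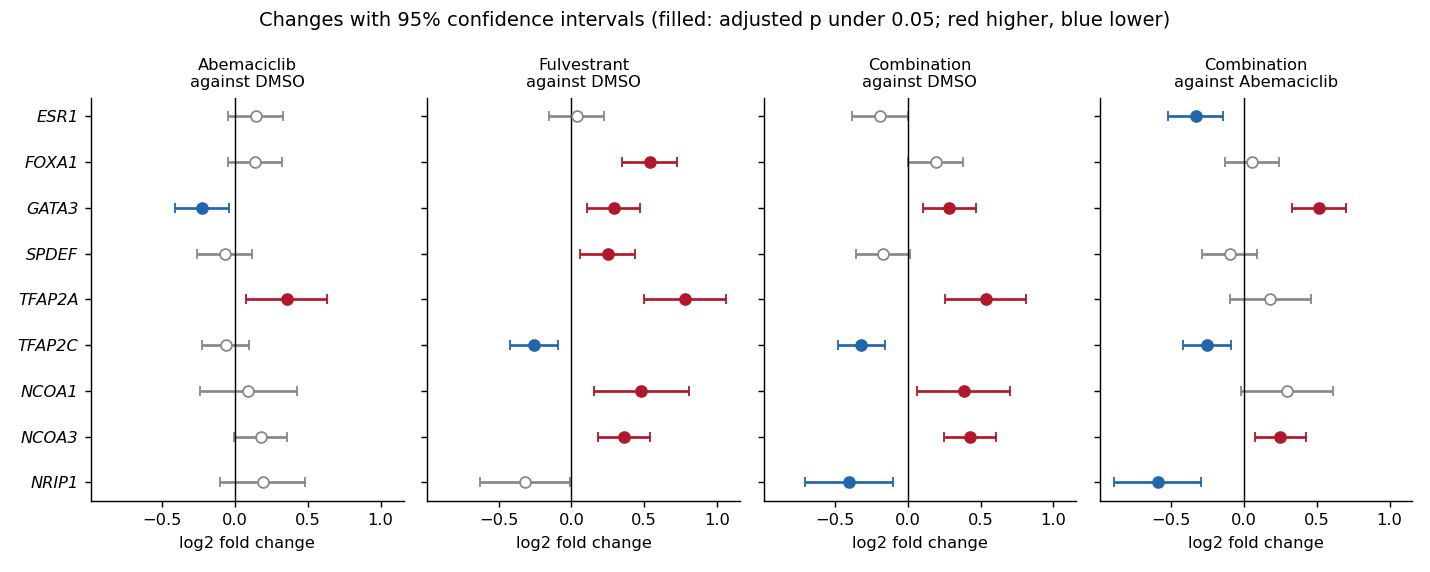
log2 fold changes (horizontal axes) of the 9 genes in 4 comparisons, with 95% confidence intervals; filled points have an adjusted p under 0.05 (red higher, blue lower). Under fulvestrant TFAP2A is farthest to the right (0.78) and TFAP2C lies to the left (-0.26), while from abemaciclib to the combination GATA3 (0.51) and NRIP1 (-0.59) are the extremes.

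Counted over the 9 members, abemaciclib against DMSO called 2 (1 higher, 1 lower), where 41.2% of all genes tested were called (20.5% higher, 20.7% lower). Libraries of the 2 groups did not overlap for 3 members, against 54.2% of all genes. Fulvestrant against DMSO called 7 (6 higher, 1 lower), against 51% of all genes (25.3% higher, 25.7% lower), and 6 members did not overlap, against 54.7%. The combination against DMSO called 6 (4 higher, 2 lower), against 55.2% (27.7% higher, 27.5% lower), and 7 did not overlap, against 62.1%. Under fulvestrant the median change was 0.29 log2 for the members and 0.01 for all genes. All 3 comparisons share the DMSO libraries. By mean CPM the members stood between the 44.7th (NCOA1) and the 99.9th (GATA3) percentile of genes tested, with ESR1 at the 82.7th. The shares over all genes were not matched for level.

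Adding fulvestrant to abemaciclib called 5 members (2 higher, 3 lower), against 33.5% of all genes (15.9% higher, 17.7% lower), and 5 did not overlap, against 48.5%. GATA3 and NCOA3 were higher, and ESR1, TFAP2C and NRIP1 were lower. Adding abemaciclib to fulvestrant called 2, FOXA1 and SPDEF, both lower, against 1.92% of all genes (0.297% higher, 1.63% lower), and 3 did not overlap, against 14.6%. The single drugs differed in 5 members, against 29% of all genes, with 7 not overlapping, against 40.2%. FOXA1, GATA3, SPDEF and TFAP2A were lower with abemaciclib than with fulvestrant (13.4% of all genes were lower), and NRIP1 was higher (15.5%).

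Whether abemaciclib acted in the same way with and without fulvestrant was asked with an interaction term, the change with both drugs minus the sum of the single-drug changes. This takes the doses in the combination to be those of the single-drug groups, which the labels do not state. The term was called for 3 members, all negative, against 21.1% of all genes (9.49% positive, 11.6% negative). ESR1 changed by -0.19 with both drugs, where the single-drug changes summed to 0.18 (interaction -0.37 ± 0.13, interval -0.64 to -0.10, adjusted p = 0.0434). FOXA1 changed by 0.19 against a sum of 0.67 (interaction -0.48 ± 0.13, adjusted p = 0.00821), the only 1 of the 3 called under every alternative. TFAP2A changed by 0.54 against a sum of 1.14 (interaction -0.60 ± 0.18, interval -0.99 to -0.21, adjusted p = 0.0321). In each of these genes the combination fell short of the sum.

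The ESR1 term was lost without DMSO replicates 2 or 3, abemaciclib replicates 1, 2 or 3, fulvestrant replicate 3, or combination replicates 1 or 2, with values from -0.40 to -0.28 and adjusted p from 0.0511 to 0.107. It was also lost with DESeq2 (-0.37, adjusted p = 0.0823), library totals only (-0.26, adjusted p = 0.178) and no filter on low counts (-0.38, adjusted p = 0.062). The TFAP2A term was lost without DMSO replicate 1, abemaciclib replicates 2 or 3, or fulvestrant replicates 1 or 2, with values from -0.60 to -0.51 and adjusted p from 0.0553 to 0.0928. SPDEF, at -0.35, missed the threshold (adjusted p = 0.0562) and passed without DMSO replicate 1 (-0.44, adjusted p = 0.015), abemaciclib replicate 3 (-0.41, adjusted p = 0.0399) or fulvestrant replicate 3 (-0.40, adjusted p = 0.0123). It also passed with upper-quartile scaling (adjusted p = 0.0453) and with no filter on low counts (adjusted p = 0.0493). For TFAP2C the 2 values coincided at -0.32 (interaction interval -0.23 to 0.23). GATA3 had a term of 0.23 (adjusted p = 0.215), which passed at 0.35 (adjusted p = 0.00506) without fulvestrant replicate 3.

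**Figure D3:**
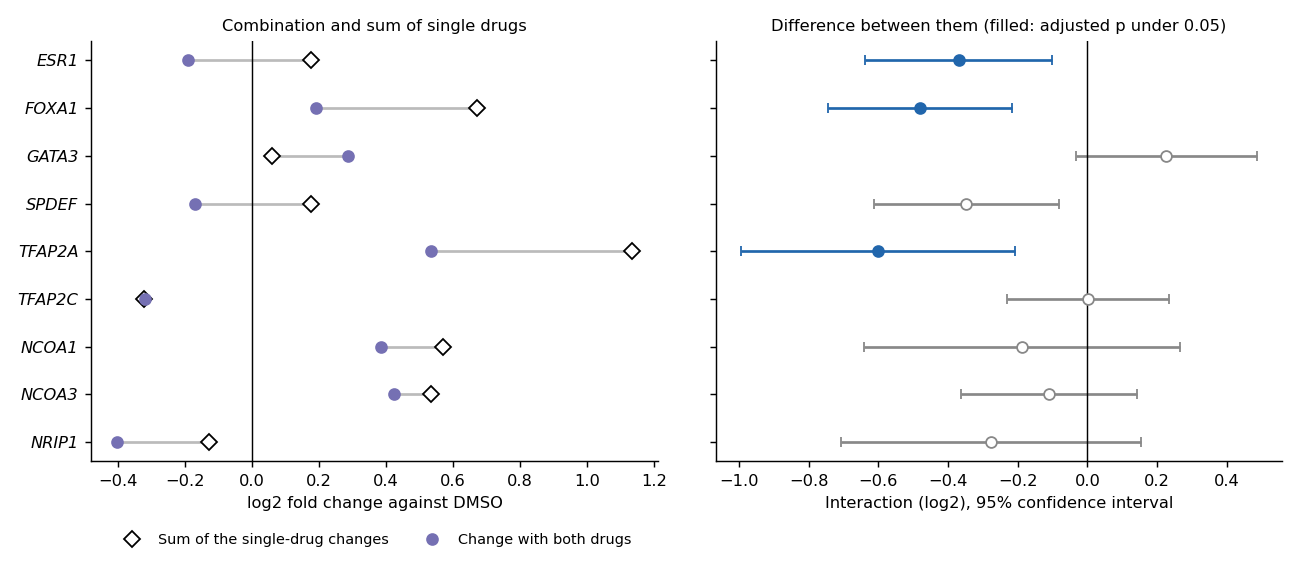
Left, the log2 change with both drugs (circles) and the sum of the single-drug changes (diamonds) against DMSO; right, their difference with its 95% confidence interval, filled where the adjusted p is under 0.05. ESR1 (-0.37), FOXA1 (-0.48) and TFAP2A (-0.60) are the filled points, and the TFAP2C values coincide.

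The patterns over all 12 libraries were compared by the root mean square difference of log2 CPM after each gene's mean was subtracted. All distances share the same libraries and their depth, and are a description. They are not scaled by a gene's range, so genes that move little lie near one another. The closest members were NCOA1 and NCOA3, at 0.156 log2, followed by ESR1 and TFAP2C at 0.168 and GATA3 and NCOA3 at 0.170. The farthest were TFAP2A and NRIP1, at 0.530, and GATA3 and NRIP1, at 0.511. Of the 36 pairs the coactivators were thus the most alike, and NRIP1 was the member least like TFAP2A and GATA3.

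Among 6500 other genes of at least 20 CPM, AP2B1 was nearest to ESR1 with a distance of 0.0550 (median of all candidates 0.288), followed by DENND2D (0.0652) and NANS (0.0802). AP2B1, a subunit of the clathrin adaptor, averaged 252, 287, 261 and 223 CPM in DMSO, abemaciclib, fulvestrant and combination. Nearest to TFAP2A, the member of widest range, were TM9SF2 (0.0958), TCEAL3 (0.102) and ACSL1 (0.106), where the median of all candidates was 0.380. TM9SF2, a transmembrane protein, averaged 204, 257, 336 and 314 CPM in the same order.

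Other genes were taken from 4 lists: coactivators, corepressors, other luminal transcription factors and family relatives of the members. Of 27 coactivator genes tested, 5 were higher and 8 lower with abemaciclib (median -0.11 log2), where 20.5% of all genes were higher and 20.7% lower. With fulvestrant 6 were higher and 7 lower (median -0.10), where 25.3% of all genes were higher and 25.7% lower. TRIM24, a bromodomain coregulator of nuclear receptors, rose from 95.2 ± 5.25 CPM in DMSO to 251 ± 9.20 CPM with fulvestrant (1.40 ± 0.08 log2, adjusted p = 1.06e-13), and from 138 CPM with abemaciclib to 237 CPM with the combination (0.78, adjusted p = 1.81e-08). CITED2, which binds the acetyltransferases CREBBP and EP300, rose by 1.29 ± 0.31 with abemaciclib (adjusted p = 0.00733) and by 1.92 ± 0.30 with fulvestrant (adjusted p = 0.00036). NCOA7, an oestrogen receptor associated protein, fell by 1.60 with fulvestrant (adjusted p = 3.38e-05). The Mediator subunit gene MED24 rose by 0.71 with abemaciclib (adjusted p = 0.0266), lost without abemaciclib replicate 1 (0.72), abemaciclib replicate 2 (0.68) or abemaciclib replicate 3 (0.73), or with no filter on low counts (0.72, adjusted p = 0.0692). CCAR1, a coactivator that works with Mediator, fell by 0.59 from abemaciclib to the combination (adjusted p = 5.21e-05).

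NCOA7 also fell by 0.75 with abemaciclib (adjusted p = 0.0171) and by 0.96 from abemaciclib to the combination (adjusted p = 0.0121), calls that depended on single libraries. The first was lost without DMSO replicate 1 (-0.51) or abemaciclib replicate 3 (-0.61). The second was lost without abemaciclib replicate 1 (-0.87), abemaciclib replicate 2 (-0.90) or combination replicate 3 (-0.82). From abemaciclib to the combination 6 of the 27 coactivator genes were higher and 3 lower, where 15.9% of all genes were higher and 17.7% lower.

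Of 20 corepressor genes tested, 2 were higher and 9 lower with abemaciclib (median -0.18 log2), 3 higher and 8 lower with fulvestrant (median -0.16), and 3 higher and 10 lower with the combination (median -0.19), beside medians of 0.00046, 0.01 and 0.01 over all genes. Of all genes, 20.7%, 25.7% and 27.5% were lower in these comparisons and 20.5%, 25.3% and 27.7% were higher. TBL1X, a subunit of the NCoR complex, fell from 174 ± 6.29 CPM in DMSO to 101 ± 8.16 CPM with abemaciclib (-0.78 ± 0.09, adjusted p = 1.31e-07) and to 103 ± 11.3 CPM with fulvestrant (-0.76, adjusted p = 1.31e-07). HDAC1, a histone deacetylase, fell by 0.77 with abemaciclib (adjusted p = 2.17e-06) and SAFB, a scaffold attachment factor that represses ER, by 0.70 (adjusted p = 3.42e-05). Its relative SAFB2 fell by 0.70 with fulvestrant (adjusted p = 5.56e-06) and the histone demethylase KDM1A by 0.79 (adjusted p = 6.91e-05).

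From abemaciclib to the combination 5 of the 20 corepressor genes were higher and 1 lower, where 15.9% of all genes were higher and 17.7% lower. TLE3, a Groucho-type corepressor, rose by 0.44 (adjusted p = 9.1e-05), and NCOR1, the scaffold of a deacetylase complex, by 0.40 (adjusted p = 0.001).

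Of 11 other luminal transcription factors tested, 7 were higher and 2 lower with abemaciclib (median 0.41 log2), where 20.5% of all genes were higher and 20.7% lower. With fulvestrant 4 were higher and 1 lower (median 0.14), where 25.3% of all genes were higher and 25.7% lower. EHF, an ETS factor of epithelium, rose from 10.3 ± 2.21 CPM in DMSO to 27.7 ± 5.80 CPM with abemaciclib (1.45 ± 0.19, adjusted p = 4.96e-07) and fell by 1.02 from there to the combination (adjusted p = 5.25e-05). LMO4, a LIM domain cofactor, rose by 0.58 with abemaciclib (adjusted p = 0.00182). RUNX1, the Runt factor that binds with ER, moved in opposite directions with the 2 drugs, from 20.2 ± 1.53 CPM in DMSO to 36.3 ± 1.99 CPM with abemaciclib (0.85, adjusted p = 0.000128) and to 10.1 ± 2.78 CPM with fulvestrant (adjusted p = 0.000107). In the combination RUNX1 stood at 9.57 ± 2.60 CPM, lower than with abemaciclib (-1.90 ± 0.18 log2, adjusted p = 2.24e-09).

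ELF3, another ETS factor, rose by 0.91 with fulvestrant (adjusted p = 2.01e-07) and by 0.82 from abemaciclib to the combination (adjusted p = 1.94e-06). The zinc finger gene ZNF217 rose by 0.65 with fulvestrant (adjusted p = 1.2e-06). From abemaciclib to the combination 4 of the 11 genes of this list were higher and 3 lower, where 15.9% of all genes were higher and 17.7% lower.

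Of 11 close relatives of the members only GATA2 and GATA6 had enough counts to be tested; ESR2, FOXA2, FOXA3, GATA1, GATA4, GATA5, TFAP2B, TFAP2D and TFAP2E did not. GATA6 rose from 6.68 ± 1.26 CPM in DMSO to 19.9 ± 3.62 CPM with fulvestrant (1.55 ± 0.21, adjusted p = 6.79e-07) and by 1.10 from abemaciclib to the combination (adjusted p = 8.46e-05). When abemaciclib was added to fulvestrant, edgeR called 0 genes of any of the 4 lists, and DESeq2 also called 0. In that comparison edgeR called only 1.92% of all genes, so few calls could fall in lists of this size. At an unadjusted p under 0.05 that comparison held 4 coactivators, 0 corepressors, 1 luminal factor and 1 relative. The share of all genes under that cutoff was not computed, so these counts do not set the lists apart. The named list genes were picked by size of change among those called, and the lists are described by their counts alone.

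**Figure D4:**
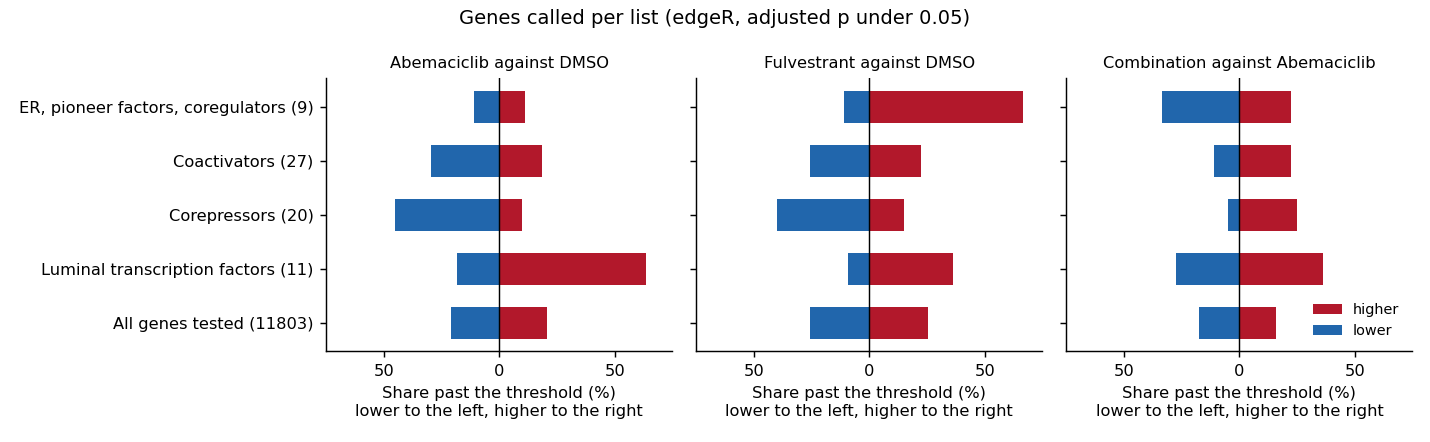
Share of genes past the adjusted p threshold in each list (percent, lower to the left and higher to the right; number tested in brackets) for 3 comparisons, with all 11803 genes tested as the bottom row. Corepressors extend mainly to the left under either single drug (9 and 8 of 20 lower), luminal transcription factors to the right with abemaciclib (7 of 11 higher).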

How the data were processed

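RNA was extracted from pellets of CAMA-1 cells in 4 groups of 3 libraries, and libraries were made with a QuantSeq 3' FWD kit. Per the labels, the authors aligned reads to GRCh38 with STAR and counted them per gene with featureCounts v2.0.1. The deposited values are raw counts, not normalized. Of 60656 rows, 44 without a symbol held 0 reads and were left out. Treatment length is not given in the labels.

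Counts were tested with edgeR v4.0.16 in R v4.3.3 (robust quasi-likelihood fit to all 12 libraries, TMM factors, 2-sided). Genes entered if they passed filterByExpr by group (minimum count 10, minimum total 15), which left 11803. P-values were adjusted by Benjamini-Hochberg over all genes tested, with a threshold of 0.05. CPM used TMM-scaled library sizes, and distances between patterns used log2 CPM with a prior count of 2. Standard errors were taken from the F statistic. The common biological coefficient of variation was 0.0918. With totals of 3299119 to 5164667 counts, NCOA1 and NRIP1 were the most thinly counted members. The fit was tested on simulated data with seeded changes larger than that of any member. That test does not show how well changes of the members' size are recovered.

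Alternatives were DESeq2 v1.42.0, other scalings, other filters, only the groups compared, a replicate block, leaving out each library, and leaving out mitochondrial transcripts, which was chosen after seeing the data. Each of the 9 members is named. From each list, up to 3 called genes of the largest change were named per comparison where a group averaged at least 10 CPM and libraries did not overlap. A gene that this rule also named is not reported here. The members and lists were chosen with earlier results of these data known. The sources used here name no molecular identifiers.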

Additional observations from a re-analysis of the deposited data

Results flagged for a closer look

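For 3 members the change with abemaciclib differed by whether fulvestrant was present, by the test of the difference itself (the interaction term in edgeR's quasi-likelihood fit). Of all genes 21.1% were called by this test, 11.6% with a negative term. The test takes the doses in the combination to be those of the single-drug groups, which the labels do not state. Abemaciclib changed ESR1 by 0.14 log2 without fulvestrant (adjusted p = 0.226) and by -0.23 on top of it (adjusted p = 0.304), a difference of -0.37 (adjusted p = 0.0434). FOXA1 changed by 0.14 (adjusted p = 0.244) and by -0.34 (adjusted p = 0.0428), a difference of -0.48 (adjusted p = 0.00821). TFAP2A changed by 0.35 (adjusted p = 0.0417) and by -0.24 (adjusted p = 0.505), a difference of -0.60 (adjusted p = 0.0321). The ESR1 term was lost in 11 of 20 alternatives and the TFAP2A term in 5 of 20, whereas the FOXA1 term was called in all of them. Groups of 3 libraries were not searched for outlying libraries.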

How the results depend on the processing

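Of the 27 calls for members in pairwise comparisons, 12 kept their direction and side of the threshold under every alternative, and of 3 interaction calls 1 did, that of FOXA1. Of 27 pairwise changes not called, 24 stayed so. No called change turned direction. The count of members called ranged, on leaving out 1 library at a time, from 0 to 1 for abemaciclib against DMSO (2 in full), 5 to 7 for fulvestrant against DMSO (7), 3 to 6 for the combination against DMSO (6), 3 to 5 for the combination against abemaciclib (5), 0 to 2 for the combination against fulvestrant (2), 3 to 5 between the single drugs (5) and 1 to 4 for the interaction (3). Counts over 1.5 times lower came for abemaciclib against DMSO whichever 1 of its 6 libraries was left out (0 or 1), without combination replicate 1 against DMSO (3), without abemaciclib replicate 3 against the combination (3) or fulvestrant (3), without abemaciclib replicate 2 for the interaction (1), and, between combination and fulvestrant, without fulvestrant replicates 1 or 2 or combination replicate 1 (1 each) or combination replicate 3 (0). Abemaciclib against DMSO called 1 member with DESeq2 or upper-quartile factors. The combination against fulvestrant called 1 member with library totals only, with at least 10 counts in every library, or with only the groups compared, where the count over all genes was 227 in full, 91 with the stricter filter and 125 with only the groups compared. Without fulvestrant replicate 3 the count over all genes for that comparison was 588 of 12069 tested. For the interaction it went from 2493 in full to 3318, with 4 members called. The cause was not tested. Of 29 changes of named list genes, 25 were called under all alternatives. List counts stayed within 1.5 times in 415 of 440 settings.

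The replicate numbers showed no clear pairing of the libraries. The 18 correlations between same-numbered libraries ran from -0.21 to 0.12 (median 0.023). The 36 between different-numbered libraries ran from -0.21 to 0.30 (median -0.00023). With 3 libraries a group these correlations depend on each other, and a weak pairing would not be seen. A fit with the numbers as a replicate block called 1 member for abemaciclib against DMSO, as GATA3 missed the threshold (-0.23, adjusted p = 0.0502), and it changed no other call for a member.

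Only changes that were not called turned sign. ESR1 with fulvestrant was -0.021 with library totals only. GATA3 from fulvestrant to the combination was 0.0027 with upper-quartile factors, 0.038 with library totals only and 0.00023 with no filter on low counts. The TFAP2C interaction, 0.0018 in full, was -0.013 with upper-quartile factors, -0.012 with no filter, -0.00011 with the replicate block and -0.0064 without mitochondrial transcripts. On leaving out single libraries the values spanned zero for 7 changes: SPDEF with abemaciclib (-0.16 to 0.018), NCOA1 with abemaciclib (-0.054 to 0.19), ESR1 with fulvestrant (-0.057 to 0.089), FOXA1 from abemaciclib to the combination (-0.021 to 0.16), GATA3 and NRIP1 from fulvestrant to the combination (-0.084 to 0.13 and -0.20 to 0.030), and the TFAP2C interaction (-0.051 to 0.033). Using library totals alone moved the median of all genes by up to 0.11 log2. NCOA1, with as few as 58 counts in a library, had the largest standard error for fulvestrant against DMSO, 0.16 log2.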
